A study of Mus musculus with 12 samples.

Results

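The genes described here are Nodal, Gdf3, Tdgf1, Lefty1, Lefty2, Smad7, Wnt3, Eomes and Mixl1, which are 9 of the 39017 genes in the count table. They were taken by name as genes of the Nodal pathway and of the primitive streak, with earlier results of these data known. All 9 passed the filter on low counts. Poly(A) RNA of mouse embryonic stem cells (mESCs) had been sequenced from 4 groups of 3 biological replicates, or 12 libraries. J1 is a male wild-type line. 3B3L, labelled 3B3-3l, lacks the endogenous Dnmt3a and Dnmt3b genes (Dnmt3a-/- Dnmt3b-/-) and carries a Dnmt3b transgene and a Dnmt3l-Flag transgene, both driven by the constitutive CAG promoter, the latter selected with blasticidin. Cells of each line were cultured with LIF in either serum or 2i. 2i is a serum-free N2B27 medium with PD0325901, an inhibitor of MEK, and CHIR99021, an inhibitor of GSK3, and LIF is a cytokine present in all 4 groups. In serum, J1 cells grew on SNLP feeder cells that were removed by plating before analysis, while 3B3L cells grew on gelatin, so line and culture surface cannot be told apart there. Feeders are described for J1 in serum only, so medium and feeder culture cannot be told apart in J1 either. A comparison of the 2i effects between lines shares this limit. The study asked whether 3B3L cells in 2i, which keep DNA methylation that 2i would otherwise lower, have a transcriptome like that of wild-type cells in 2i or that of serum cells.

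Nodal is a secreted ligand of the TGF-beta family that signals through activin receptors and a co-receptor of the Cripto family to SMAD2 and SMAD3, which act with SMAD4 and the forkhead factor FOXH1. The pathway induces its own ligand and, at the same time, the secreted Lefty inhibitors that hold it in check. In the embryo, Nodal and Wnt signals in the posterior epiblast start the primitive streak, where the T-box factor Eomes and the homeobox factor Mixl1 act in the formation of mesoderm and endoderm. mESCs in culture express Nodal, Cripto and the Lefty genes without forming a streak.

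In GRCm38 coordinates of whole genes from the RefSeq annotation, Nodal (ENSMUSG00000037171) lies on chromosome 10 at 61417972 to 61425338, and Gdf3 (ENSMUSG00000030117) on chromosome 6 at 122605403 to 122610087. Tdgf1 (ENSMUSG00000032494) and Eomes (ENSMUSG00000032446) lie on chromosome 9, at 110939608 to 110946158 and 118478186 to 118486132. Chromosome 1 holds Mixl1 (ENSMUSG00000026497) at 180693043 to 180697034, Lefty2 (ENSMUSG00000066652) at 180893108 to 180899107 and Lefty1 (ENSMUSG00000038793) at 180935022 to 180938401. Wnt3 (ENSMUSG00000000125) lies on chromosome 11 at 103774175 to 103818021. No other gene overlaps any of the 9 in the gene annotation of the NCBIM37 build. Lefty2 ends 35.9 kilobases before Lefty1 starts, on the same strand.

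Lefty1 and Lefty2 are closely related paralogs, so their sequences bear on how well reads can be divided between them. Their coding sequences have 1104 bases each and share 91.8% of aligned bases. Of all words of 31 bases in the coding sequence, 37.1% occur in both genes, and over the whole transcript 25.0% of the Lefty1 words also occur in Lefty2. A 60-base stretch with the fewest differences (coding bases 272 to 331) has 0 mismatches, and one with the most (coding bases 34 to 93) has 18. These stretches, from the NCBIM37 build and its transcripts, are on the plus strand at chr1:182866699-182866758 for the identical stretch of Lefty1 and at chr1:182865274-182865333 and chr1:182823348-182823407 for the divergent stretches of Lefty1 and Lefty2. They are printed 5′ to 3′, with the bases that differ between the genes in capitals.
Lefty1, identical stretch: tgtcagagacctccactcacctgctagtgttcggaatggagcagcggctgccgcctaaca
Lefty1, divergent stretch: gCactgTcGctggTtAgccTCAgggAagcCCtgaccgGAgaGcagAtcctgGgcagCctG
Lefty2, divergent stretch: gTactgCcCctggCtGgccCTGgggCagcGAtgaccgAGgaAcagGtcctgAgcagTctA
Bases within the identical stretch do not tell the genes apart, whereas those of the divergent stretch do. How single reads, which can reach past such a stretch, were divided was not examined.

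Since 3B3L cells differ from J1 in the enzymes that methylate CpG, the promoters of 4 of the genes are shown with every CpG in capitals, as the 250 bases before the start in RefSeq annotation of GRCm38.p6, 5′ to 3′ on the strand of the gene. Nodal is at chr10:61417722-61417971 (plus strand), Tdgf1 at chr9:110946159-110946408 (minus strand), Eomes at chr9:118477939-118478188 (plus strand) and Wnt3 at chr11:103773925-103774174 (plus strand). The Eomes window ends 3 bases inside the span given above for the whole gene.
Nodal: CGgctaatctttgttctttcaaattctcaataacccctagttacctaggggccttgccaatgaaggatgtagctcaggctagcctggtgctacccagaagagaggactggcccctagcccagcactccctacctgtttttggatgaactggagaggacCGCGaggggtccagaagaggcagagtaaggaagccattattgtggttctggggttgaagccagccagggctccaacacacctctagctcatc
Tdgf1: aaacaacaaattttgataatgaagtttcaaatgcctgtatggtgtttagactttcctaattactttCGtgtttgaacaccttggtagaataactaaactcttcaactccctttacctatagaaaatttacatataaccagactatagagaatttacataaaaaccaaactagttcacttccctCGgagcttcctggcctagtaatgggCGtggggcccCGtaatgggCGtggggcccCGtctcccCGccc
Eomes: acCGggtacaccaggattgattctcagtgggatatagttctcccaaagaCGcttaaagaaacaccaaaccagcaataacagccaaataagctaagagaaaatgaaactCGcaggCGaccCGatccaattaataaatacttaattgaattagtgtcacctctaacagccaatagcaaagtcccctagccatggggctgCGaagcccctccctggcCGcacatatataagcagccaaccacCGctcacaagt
Wnt3: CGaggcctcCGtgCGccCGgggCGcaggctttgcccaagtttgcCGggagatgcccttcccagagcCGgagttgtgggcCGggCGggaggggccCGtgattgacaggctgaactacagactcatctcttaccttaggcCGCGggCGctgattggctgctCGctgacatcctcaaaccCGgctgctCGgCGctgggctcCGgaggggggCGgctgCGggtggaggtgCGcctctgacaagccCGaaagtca
The Nodal window holds 3 CpGs, Tdgf1 7, Eomes 8 and Wnt3 22, beside a median of 6 over all 32851 promoter windows of this length. GC content was 53.2% in Nodal, 42.0% in Tdgf1, 46.4% in Eomes and 68.0% in Wnt3, beside a median of 52.4%. Both strands were searched for a FOXH1 motif (AATNNACA), a palindromic SMAD motif (GTCTAGAC), a short SMAD motif (CAGAC), a TCF motif (CTTTGA) and a T-box motif (AGGTGTGA). Counted from the start, the Tdgf1 window held AATNNACA at -127 to -120 and again at -101 to -94, with CAGAC at -113 to -109, and the Wnt3 window held CAGAC at -135 to -131. No match overlapped another, and the Nodal and Eomes windows held none of the 5 motifs. AATNNACA occurred in 10.9% of all windows, CAGAC in 42.2%, CTTTGA in 13.8%, AGGTGTGA in 1.12% and GTCTAGAC in 0.167%. Methylation of these windows was not measured in the libraries described here.

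Libraries held 37050652 to 44515395 estimated reads, and a floor of 3 reads came to 0.0684 to 0.0813 CPM (read counts scaled to a common library size with TMM factors). Dnmt3b was at 41.0 to 47.2 CPM in J1 2i and 914 to 936 CPM in 3B3L 2i, and Dnmt3l at 47.9 to 55.5 CPM and 285 to 294 CPM. Dnmt3a was at 38.9 to 44.4 CPM in J1 2i and 4.01 to 5.08 CPM in 3B3L 2i, and at 166 to 167 CPM in J1 serum and 29.4 to 34.3 CPM in 3B3L serum. Reads from any part of Dnmt3a left by the deletion were not separated from the rest. The 8 ES cell markers summed to between 4382 and 6208 CPM in every library. The sum of 8 feeder fibroblast markers was 53.6 to 56.8 CPM in J1 serum, 66.3 to 77.8 CPM in 3B3L serum, 25.4 to 26.6 CPM in J1 2i and 15.6 to 16.0 CPM in 3B3L 2i. In 2i, 4 of these markers (Col3a1, Postn, Lum and Dcn) had at most 3 reads in every library, and in serum this held for Lum alone. The largest part in serum was Col1a1, at 50.6% of the sum in J1 and 49.8% in 3B3L. In 2i it was Pdgfrb, at 75.1% and 46.4%. By edgeR at an adjusted p under 0.05, 1 of the 5 markers tested was higher in J1 2i and 4 were lower (33.2% and 32.9% of all genes). In 3B3L, 0 were higher and 4 lower (32.7% and 32.7%). The 8 primitive endoderm markers summed to 157 to 176 CPM in J1 serum and 187 to 205 CPM in J1 2i. In 3B3L they summed to 201 to 206 CPM in serum and 149 to 151 CPM in 2i. Lama1 made up 64.6% of the sum in J1 serum and 91.7% in J1 2i, and 67.3% and 90.2% in 3B3L. The median log2 fold change of the 8 markers in 2i against serum was -0.70 in J1 and -1.71 in 3B3L. The fibroblast sum thus moved with the medium, as did several genes below, and its part in their differences was not tested. The sum was highest in 3B3L serum, where cells grew on gelatin. In bulk RNA, fewer cells of a type and less RNA per cell cannot be told apart.

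Per kilobase of effective transcript length, Tdgf1 had the highest level of the 9 genes in every group, at 241 to 277 RPKM (CPM divided by that length, group means). In serum, Lefty1 came next (178 ± 2.90 RPKM in J1 and 155 ± 9.44 in 3B3L, SD, n = 3), followed by Lefty2, Gdf3, Nodal and Smad7. Eomes, Wnt3 and Mixl1 were at the bottom, all at or under 1.09 RPKM in serum. In 2i the order changed. Lefty2 was second in both lines, and Lefty1 dropped to the fifth place, at 26.6 ± 1.83 RPKM in J1 and 28.7 ± 1.95 RPKM in 3B3L, where its libraries overlapped those of Smad7 next to it. No other neighbours in the order overlapped within any of the 4 groups.

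**Figure D1:**
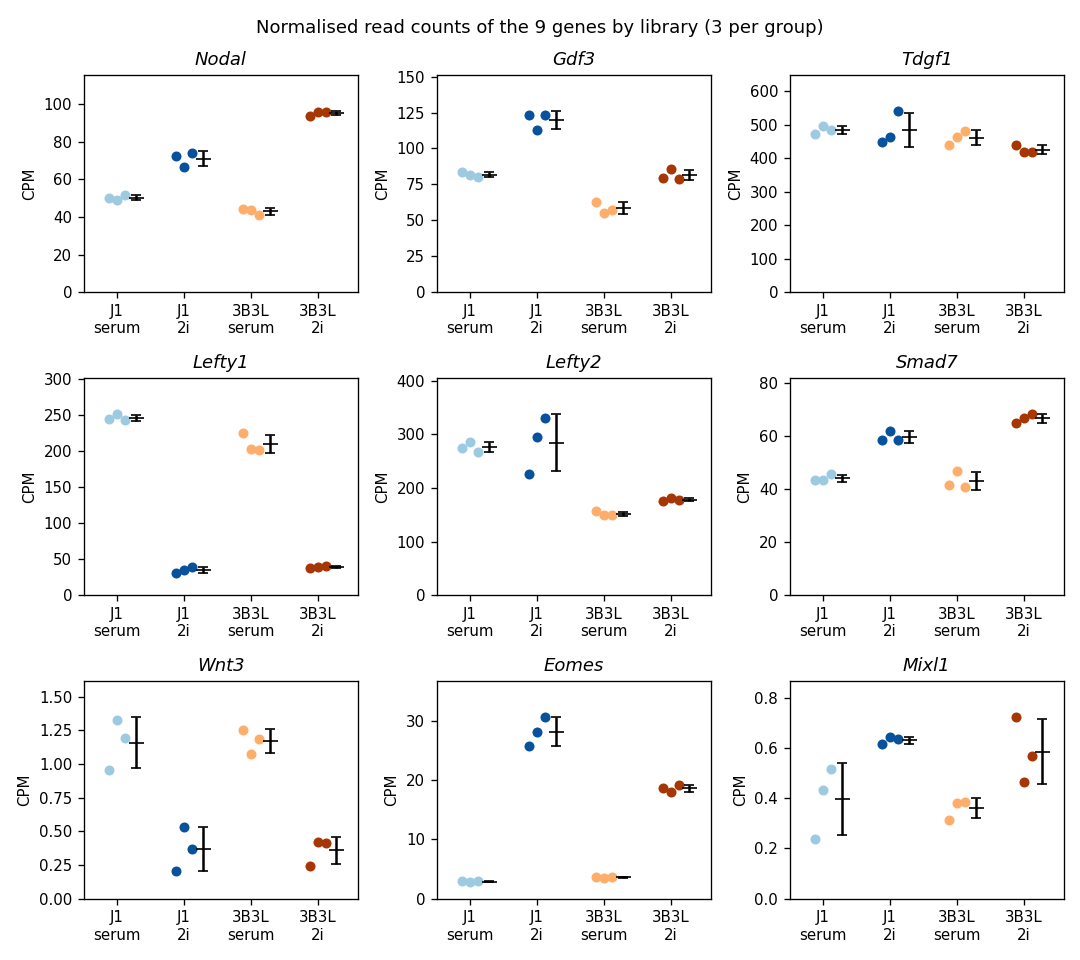
Normalised read counts (CPM, linear axis from 0) of the 9 genes in each of the 12 libraries. Coloured points are libraries, grouped by line and medium along the horizontal axis, and the black mark beside them gives the mean ± SD of 3 libraries. Lefty1 falls and Eomes rises in 2i in both lines, while Nodal is highest in 3B3L 2i at 93.8 to 96.0 CPM.

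2i was first compared with serum within each line. In J1, 7 of the 9 genes passed the test (edgeR quasi-likelihood, adjusted p under 0.05), against 66.1% of all 17885 genes tested. Of these, 5 were higher in 2i (33.2% of all genes) and 2 lower (32.9%). In 3B3L, 8 of 9 passed, against 65.4% of all genes, with 6 higher (32.7%) and 2 lower (32.7%). The direction was the same in both lines for all 7 genes that passed in J1, but the matching share over all genes was not computed. The median log2 fold change of the 9 genes was 0.43 in J1 and 0.48 in 3B3L, beside 0.014 and 0.0091 over all genes. As the 9 genes were chosen with earlier results of these data known, these shares and medians are descriptions only.

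Nodal, the ligand, was higher in 2i in both lines. In J1 serum its libraries were at 50.0, 49.1 and 51.5 CPM, and in J1 2i at 72.4, 66.4 and 73.8 CPM. In 3B3L serum they were at 44.3, 43.7 and 41.0 CPM, and in 3B3L 2i at 93.8, 95.6 and 96.0 CPM. All 2i libraries lay above all serum libraries, and the 3B3L groups lay outside the J1 groups on both sides. Nodal rose in 2i by 0.50 ± 0.05 (log2 fold change ± SE, adjusted p = 3.59e-07), or 1.41-fold, in J1 and by 1.15 ± 0.05 (adjusted p = 1.36e-11), or 2.21-fold, in 3B3L. The second ligand, Gdf3, which is related to Nodal and can act with it, was at 83.7, 81.2 and 80.3 CPM in J1 serum and 123, 113 and 124 CPM in J1 2i. In 3B3L it was at 63.0, 54.9 and 57.5 CPM in serum and 79.8, 85.9 and 79.0 CPM in 2i. Gdf3 rose by 0.55 ± 0.06 (adjusted p = 4.12e-07) in J1 and by 0.48 ± 0.06 (adjusted p = 2.26e-06) in 3B3L, with no overlap of libraries in either line.

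Tdgf1 encodes Cripto, the co-receptor of Nodal. It was at 472, 495 and 483 CPM in J1 serum and 448, 464 and 541 CPM in J1 2i. In 3B3L it was at 439, 463 and 483 CPM in serum and 440, 418 and 418 CPM in 2i. The libraries of the media overlapped in both lines. The 2i difference was 0.0036 ± 0.06 (log2, adjusted p = 0.965) in J1 and -0.12 ± 0.06 (adjusted p = 0.115) in 3B3L. The latter passed in 3 alternatives, with the J1 2i replicate 3 left out (-0.12), in a fit to the 6 libraries of the line (-0.13) and with genes held to at least 10 reads in every library (-0.17). A pseudogene of Tdgf1, Tdgf1-ps2, had 0 or 1 read in every library.

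The secreted inhibitors Lefty1 and Lefty2 behaved unlike each other. Lefty1 was at 244, 251 and 243 CPM in J1 serum and 31.5, 35.2 and 38.6 CPM in J1 2i, and at 224, 203 and 201 CPM in 3B3L serum and 38.0, 39.4 and 41.0 CPM in 3B3L 2i. The serum libraries of both lines stood far above the 2i libraries. Lefty1 fell by 2.81 ± 0.07 on the log2 scale (adjusted p = 1.69e-14), or 7.01-fold, in J1 and by 2.41 ± 0.07 (adjusted p = 5.40e-14), or 5.31-fold, in 3B3L. Lefty2 was at 275, 286 and 268 CPM in J1 serum and 226, 295 and 331 CPM in J1 2i, where the libraries spread widely and overlapped those of serum (0.042 ± 0.09, adjusted p = 0.704). Without the J1 2i replicate 1, which was the lowest, the value was 0.18 and passed the test. In 3B3L, Lefty2 was at 157, 149 and 149 CPM in serum and 176, 181 and 177 CPM in 2i, a rise of 0.23 ± 0.09 (adjusted p = 0.0412) with no overlap. That call lay close to the threshold and was lost in 11 of 19 alternatives, over all of which the value ran from 0.17 to 0.25. The losses included leaving out any of the 3B3L 2i libraries, 3B3L serum replicates 2 or 3, or any J1 serum library, and the use of transcript length offsets.

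The composition of the Lefty pool differed between media. Per length, Lefty1 made up 56.9% to 57.5% of the sum of both genes in J1 serum and 67.3% to 68.1% in 3B3L serum. In 2i it made up 15.7% to 19.0% in J1 and 24.5% to 27.1% in 3B3L. On this scale Lefty1 was the larger part in all 6 serum libraries and the smaller part in all 6 libraries in 2i. By reads, with no correction for length, it was 46.7% to 47.6% of the sum in J1 serum, and so the smaller part, and 57.4% to 58.9% in 3B3L serum. The sum of both genes was 306 to 319 RPKM in J1 serum against 129 to 180 RPKM in J1 2i, and 220 to 243 RPKM in 3B3L serum against 111 to 114 RPKM in 3B3L 2i. When the reads of both genes were added up before the fit, which removes any error in dividing them, the sum fell by 0.71 on the log2 scale (adjusted p = 3.83e-06) in J1 and by 0.73 (adjusted p = 2.66e-06) in 3B3L. With Nodal higher and the Lefty sum lower, the ratio of Nodal to the Lefty sum per length was 0.0797 to 0.0874 in J1 serum, 0.214 to 0.291 in J1 2i, 0.0944 to 0.102 in 3B3L serum and 0.437 to 0.445 in 3B3L 2i. No group overlapped another in this ratio, and the sums and ratios of single libraries are given as descriptions, with no test.

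**Figure D2:**
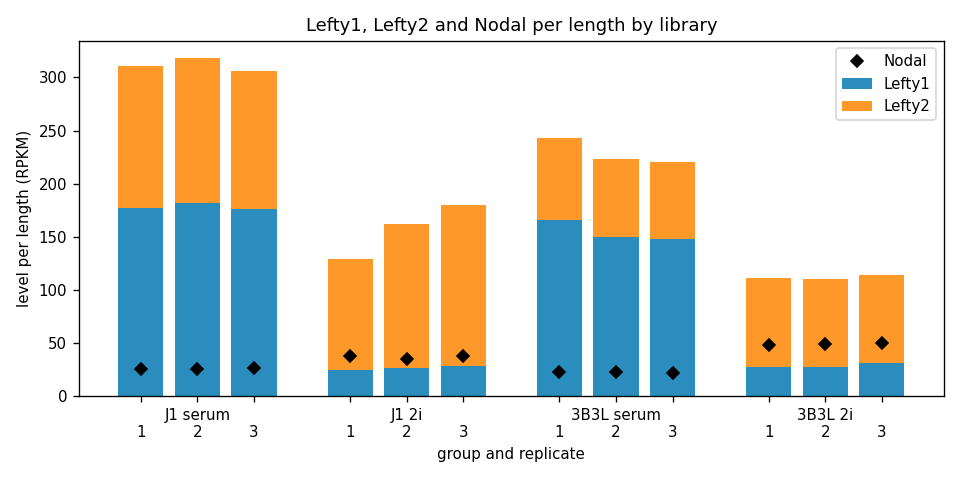
Level per length (RPKM, linear axis from 0) in each of the 12 libraries, by group and replicate. Stacked bars give Lefty1 and Lefty2, and black diamonds give Nodal on the same axis. The Lefty1 part of the bars shrinks in 2i, and Nodal reaches 0.437 to 0.445 of the bar height in 3B3L 2i.

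Within genes, the shares of single transcript models were compared. The retained-intron model Lefty2-002 (422 bases) took 11.6% ± 0.40 of Lefty2 TPM in J1 serum, 5.70% ± 1.05 in J1 2i, 12.2% ± 1.71 in 3B3L serum and 8.35% ± 2.01 in 3B3L 2i. By estimated reads, which do not correct for its short length, the same model took 1.43%, 0.65%, 1.48% and 1.02%. The libraries of the media did not overlap in either line on the TPM scale (3B3L serum 10.5% to 13.9%, 3B3L 2i 6.31% to 10.3%), but by estimated reads those of 3B3L did (1.21% to 1.77% and 0.77% to 1.28%). The coding model Lefty1-001 took 88.0% to 92.9% of Lefty1 TPM as group means. Nodal, Gdf3, Tdgf1, Wnt3 and Mixl1 each had 1 transcript model.

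Smad7, an inhibitory SMAD that is induced by TGF-beta signals and blocks the activated receptors, was at 43.5, 43.3 and 45.7 CPM in J1 serum and 58.4, 62.1 and 58.6 CPM in J1 2i. In 3B3L it was at 41.6, 47.0 and 41.0 CPM in serum and 65.0, 66.8 and 68.2 CPM in 2i. All 2i libraries exceeded all serum libraries. Smad7 rose by 0.43 ± 0.06 (adjusted p = 5.39e-06) in J1 and by 0.63 ± 0.06 (adjusted p = 7.56e-08) in 3B3L. The gene (ENSMUSG00000025880) lies on chromosome 18 at 75367365 to 75395935. Of its 5 transcript models, Smad7-001 (4278 bases) took 46.0% to 52.8% of TPM as group means, and the short coding model Smad7-003 took 26.9% to 33.6%. By estimated reads, these were 78.0% to 83.1% and 6.25% to 8.37%.

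Among the streak genes, Eomes had the largest change of the 9 genes in J1, and in 3B3L its change and that of Lefty1 were of similar size. It was at 2.94, 2.71 and 2.97 CPM in J1 serum and 25.7, 28.1 and 30.6 CPM in J1 2i. In 3B3L it was at 3.58, 3.52 and 3.56 CPM in serum and 18.6, 18.0 and 19.1 CPM in 2i. The 2i libraries of each line lay well above all 6 serum libraries. Eomes rose by 3.30 ± 0.08 (adjusted p = 1.84e-14), or 9.82-fold, in J1 and by 2.39 ± 0.08 (adjusted p = 3.89e-13), or 5.24-fold, in 3B3L. The main coding model Eomes-001 took 82.8% to 88.6% of Eomes TPM as group means. Even in J1 2i, where it was highest, Eomes reached 8.84 ± 0.68 RPKM (SD, n = 3), under the level of Smad7.

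Wnt3, the ligand that starts the streak, and Mixl1 had few reads in every library. Wnt3 had 40, 55 and 44 reads in J1 serum and 9, 23 and 15 in J1 2i, and 48, 45 and 46 in 3B3L serum and 10, 18 and 16 in 3B3L 2i. The media did not overlap in either line. Wnt3 fell by 1.65 ± 0.28 on the log2 scale (adjusted p = 8.90e-05) in J1 and by 1.71 ± 0.29 (adjusted p = 7.07e-05) in 3B3L. Mixl1 had 10, 18 and 19 reads in J1 serum and 27, 28 and 26 in J1 2i, and 12, 16 and 15 in 3B3L serum and 30, 20 and 22 in 3B3L 2i. It rose by 0.68 ± 0.28 (adjusted p = 0.0448) in J1 and by 0.69 ± 0.29 (adjusted p = 0.0491) in 3B3L, both near the threshold. The call was lost in 14 of 19 alternatives in J1 and in 16 of 19 in 3B3L, with values over all of them of 0.41 to 0.90 and 0.51 to 0.81. In J1 it was kept, among the fits without 1 library, only without 3B3L 2i replicates 1 or 2 or J1 serum replicate 3, and in 3B3L only without 3B3L 2i replicate 2 or J1 serum replicate 1.

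**Figure D3:**
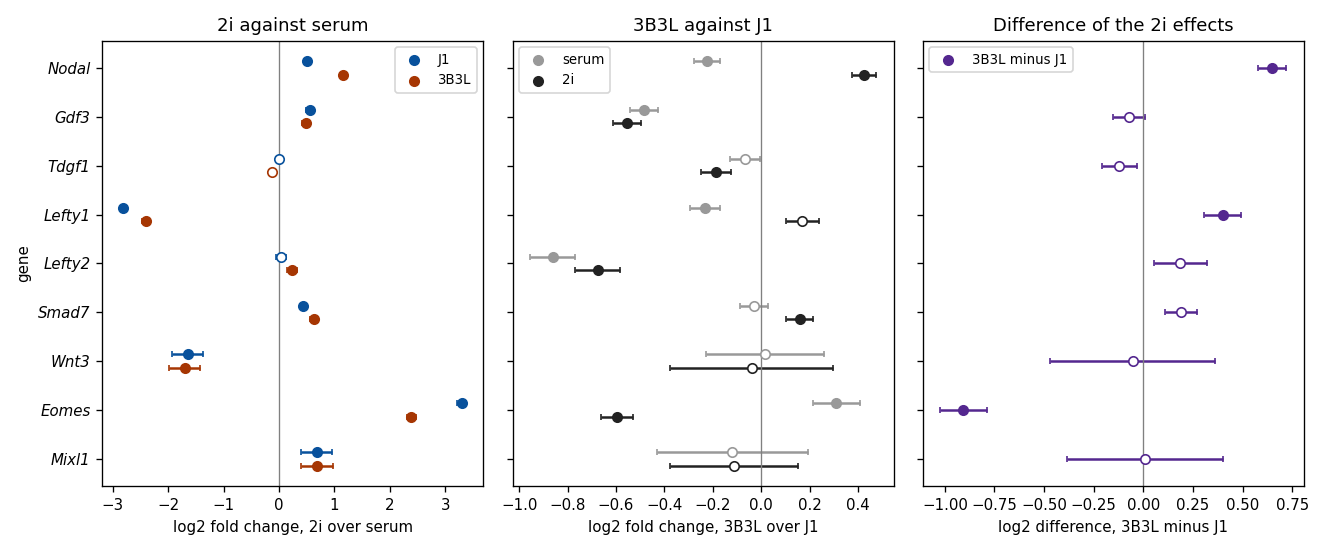
Log2 fold changes of the 9 genes from the edgeR fit, with bars of 1 SE. The panels give 2i over serum in each line, 3B3L over J1 in each medium, and the difference of the 2i effects (3B3L minus J1); the horizontal scales differ. Filled points passed an adjusted p of 0.05 and open points did not. In the right panel, only Nodal, Lefty1 and Eomes are filled.

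The lines were then compared within each medium. These comparisons use the same libraries as those above and are not independent of them. In 2i, 6 of the 9 genes passed, against 45.9% of all genes, with 2 higher in 3B3L (23.0% of all genes) and 4 lower (22.9%). In serum, 5 passed, against 38.7% of all genes, with 1 higher in 3B3L (21.5%) and 4 lower (17.2%). Nodal was 0.22 ± 0.05 lower in 3B3L in serum on the log2 scale (-0.22, adjusted p = 0.00307) and 0.42 ± 0.05 higher in 2i (adjusted p = 5.34e-06). Eomes went the other way, at 0.31 ± 0.10 in serum (adjusted p = 0.0196) and -0.60 ± 0.07 in 2i (adjusted p = 2.80e-06). The serum call for Eomes was lost without the J1 serum replicate 2 (0.27) and in 4 other alternatives.

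Gdf3 and Lefty2 were lower in 3B3L in both media. Gdf3 differed by -0.48 ± 0.06 in serum (adjusted p = 1.01e-05) and -0.56 ± 0.06 in 2i (adjusted p = 1.35e-06). Lefty2 differed by -0.86 ± 0.09 in serum (adjusted p = 3.55e-06) and -0.68 ± 0.09 in 2i (adjusted p = 2.34e-05). For both genes the libraries of the lines did not overlap in either medium. Lefty1 was at -0.23 ± 0.06 in serum (adjusted p = 0.00866) and at 0.17 ± 0.07 in 2i, where it did not pass (adjusted p = 0.0536) but did so without the 3B3L serum replicate 1 (0.17) or the J1 2i replicate 3 (0.24).

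Smaller differences in 2i were less secure. Tdgf1 was at -0.19 ± 0.06 in 2i (adjusted p = 0.0230), a call lost without the 3B3L 2i replicate 3 (-0.17) or the J1 2i replicate 3 (-0.10). Smad7 was at 0.16 ± 0.06 in 2i (adjusted p = 0.0293), and this call was lost in 10 of 19 alternatives, over all of which the value was 0.13 to 0.19. The losses included the fits without 3B3L 2i replicates 2 or 3, without J1 2i replicates 1 or 3, and without any of the J1 serum libraries. In serum, Tdgf1 (-0.067 ± 0.06, adjusted p = 0.433) and Smad7 (-0.032 ± 0.06, adjusted p = 0.700) did not pass. Wnt3 was at -0.038 ± 0.34 in 2i (adjusted p = 0.942) and 0.016 ± 0.24 in serum (adjusted p = 0.968), and Mixl1 at -0.11 ± 0.26 (adjusted p = 0.764) and -0.12 ± 0.31 (adjusted p = 0.798). At 9 to 55 reads a library for Wnt3 and 10 to 30 for Mixl1, the errors leave room for differences in either direction.

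Whether the 2i effect itself differed between lines was tested as an interaction. Of the 9 genes, 3 passed, against 34.7% of all genes, with 2 higher in 3B3L (16.3%) and 1 lower (18.3%). The 2i effect on Nodal was 0.65 ± 0.07 larger in 3B3L (log2, adjusted p = 6.88e-06). That on Lefty1 was 0.40 ± 0.09 less negative in 3B3L (adjusted p = 0.00348). That on Eomes differed by -0.91 ± 0.12 (adjusted p = 2.92e-05), a smaller rise in 3B3L. All 3 kept their direction and call in each of 18 alternatives that fitted the genes apart, but with the reads of Lefty1 and Lefty2 added up the difference was -0.024 (adjusted p = 0.905). Smad7 (0.19 ± 0.08, adjusted p = 0.0785) passed with transcript length offsets (0.22) and without the 3B3L serum replicate 2 (0.26). Lefty2 (0.19 ± 0.13, adjusted p = 0.294) passed without the J1 2i replicate 3 (0.31). Gdf3 (-0.072 ± 0.08, adjusted p = 0.536), Tdgf1 (-0.12 ± 0.09, adjusted p = 0.318), Wnt3 (-0.054 ± 0.41, adjusted p = 0.936) and Mixl1 (0.0074 ± 0.39, adjusted p = 0.992) did not pass.

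The other genes of the pathway were described from a list of 30 genes, of which 28 could be tested. Acvr1c and Cer1 had too few reads. This list and that of the streak genes below were also chosen with earlier results of these data known. Genes named from the lists averaged at least 1 CPM in their highest group, so that strongest, highest and lowest below apply to those. In J1, 7 were higher and 13 lower in 2i (33.2% and 32.9% of all genes), with a median of -0.16 beside 0.014 over all genes. In 3B3L, 9 were higher and 13 lower (32.7% and 32.7%), with a median of -0.065 beside 0.0091. The strongest rise in both lines was that of Pcsk6, a proprotein convertase that can process Nodal, from 37.0 ± 2.01 to 114 ± 2.91 CPM in J1 (1.62 ± 0.05, adjusted p = 5.09e-13) and from 49.1 ± 2.39 to 130 ± 4.10 CPM in 3B3L (1.40 ± 0.05, adjusted p = 1.78e-12). Skil, a corepressor of SMAD2 and SMAD3 (SnoN), fell from 164 ± 6.03 to 40.0 ± 2.15 CPM in J1 (-2.04 ± 0.07, adjusted p = 7.80e-13) and from 179 ± 15.7 to 28.2 ± 2.16 CPM in 3B3L (-2.67 ± 0.07, adjusted p = 4.12e-14). Skil and Lefty1 fell in the same libraries in which Nodal, Smad7 and Pcsk6 rose. Of all genes, 66.1% were called in either direction in J1 and 65.4% in 3B3L, and a link between the genes named here was not tested.

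Other named members of that list were smaller in effect. Smad3, a signal-transducing SMAD, rose in J1 from 18.1 ± 0.95 to 29.1 ± 0.67 CPM (0.69 ± 0.05, adjusted p = 1.35e-08). Inhbb, an activin subunit, fell in J1 from 16.6 ± 1.10 to 9.04 ± 1.17 CPM (-0.88 ± 0.09, adjusted p = 2.20e-07). Both moved the same way in 3B3L, Smad3 by 0.36 ± 0.05 (adjusted p = 1.54e-05) and Inhbb by -1.39 ± 0.09 (adjusted p = 7.73e-10). Fst, the activin antagonist follistatin, rose by 0.59 ± 0.14 in J1 (adjusted p = 0.00135) and by 0.90 ± 0.11 in 3B3L (adjusted p = 2.78e-06). In 3B3L, Tgfb1, a TGF-beta ligand, rose by 0.72 ± 0.08 (adjusted p = 1.46e-06). Gdf1, a further ligand, was called lower in both lines, but it shares its locus and reads with Cers1 and its values are uncertain.

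Between lines, 11 of the 28 pathway genes were higher and 6 lower in 3B3L in 2i (median 0.087, beside 0.010 over all genes), and 13 were higher and 3 lower in serum (median 0.21, beside 0.031). Of all genes, 23.0% were higher and 22.9% lower in 2i, and 21.5% and 17.2% in serum. Fst was the highest in both media, at 1.64 ± 0.12 in 2i (adjusted p = 2.41e-08) and 1.33 ± 0.13 in serum (adjusted p = 1.31e-06). Dand5, a secreted Nodal antagonist, followed at 0.78 ± 0.12 in 2i (adjusted p = 5.43e-05) and 0.50 ± 0.13 in serum (adjusted p = 0.00571). Furin, another convertase, was at 0.63 ± 0.07 in 2i (adjusted p = 1.46e-06), and Smad3 at 0.43 ± 0.05 in serum (adjusted p = 1.70e-05). Smad6, an inhibitory SMAD, was at -1.05 ± 0.15 in 2i (adjusted p = 4.46e-05). In serum, Tgfb1 (-0.31 ± 0.09, adjusted p = 0.0107) and Smurf2, a ubiquitin ligase of the pathway (-0.24 ± 0.07, adjusted p = 0.00964), were lower in 3B3L, and Acvr2b, a type II receptor, was higher (0.21 ± 0.07, adjusted p = 0.0357). The difference of the 2i effects was called for 14 of 28 genes, 4 higher and 10 lower in 3B3L, beside 34.7%, 16.3% and 18.3% of all genes. Smad6 (-1.26 ± 0.21, adjusted p = 0.000237) was at the low end beside Gdf1. Tgfb1 (0.56 ± 0.12, adjusted p = 0.00184), Bambi, a decoy receptor (0.37 ± 0.12, adjusted p = 0.0289), and Ski, a corepressor (0.21 ± 0.06, adjusted p = 0.0162), were at the high end.

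Of a list of 24 further streak genes, 22 could be tested, and Mesp1 and Msgn1 had too few reads. In J1, 10 were higher and 7 lower in 2i (median -0.0049, beside 0.014 over all genes), and in 3B3L 9 were higher and 8 lower (median 0.12, beside 0.0091). Of all genes, 33.2% were higher and 32.9% lower in J1, and 32.7% and 32.7% in 3B3L. The highest in J1 was T, the T-box factor Brachyury, which rose from 0.76 ± 0.28 to 13.2 ± 1.77 CPM (4.09 ± 0.18, adjusted p = 1.65e-11). Sp5, a target of Wnt signals, rose from 1.55 ± 0.01 to 24.0 ± 1.69 CPM in J1 (3.95 ± 0.10, adjusted p = 2.00e-14) and from 1.92 ± 0.28 to 16.3 ± 0.74 CPM in 3B3L (3.09 ± 0.10, adjusted p = 1.86e-13). Axin2, a feedback inhibitor of Wnt signals, rose from 12.5 ± 0.08 to 127 ± 3.88 CPM in J1 (3.35 ± 0.05, adjusted p = 1.25e-16) and from 7.18 ± 0.18 to 51.6 ± 0.57 CPM in 3B3L (2.84 ± 0.05, adjusted p = 7.54e-16). Wnt3a was the highest in 3B3L, from 0.38 ± 0.07 to 3.47 ± 0.33 CPM (3.19 ± 0.22, adjusted p = 2.40e-09), whereas Wnt3, described above, fell. T also rose in 3B3L (2.61 ± 0.17, adjusted p = 1.69e-09), and Wnt3a in J1 (1.60 ± 0.22, adjusted p = 7.46e-06). T, Wnt3a, Sp5 and Axin2 thus rose in 2i in both lines, as did Eomes.

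Among the streak genes that fell in 2i in both lines were Hand1, a bHLH factor of mesoderm and trophoblast, at -4.77 ± 0.46 in J1 (adjusted p = 1.53e-07) and -4.04 ± 0.56 in 3B3L (adjusted p = 9.53e-06), and the growth factor Fgf8, at -2.65 ± 0.32 (adjusted p = 2.66e-06) and -2.85 ± 0.28 (adjusted p = 2.34e-07). Both were at no more than 1.37 CPM as a group mean. In 2i, Hand1 was at 0.046 CPM in J1 and 0.032 CPM in 3B3L, under the floor of 3 reads. The size of its fall is therefore uncertain. Mesp2 fell in J1 (-1.38 ± 0.19, adjusted p = 1.05e-05). Hhex, a homeobox factor of anterior endoderm, was higher in 2i in both lines. It rose by 0.27 ± 0.10 in J1 (adjusted p = 0.0288) and by 0.38 ± 0.10 in 3B3L (adjusted p = 0.00314).

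Between lines, 6 of the 22 streak genes were higher and 4 lower in 3B3L in 2i, and 7 were higher and 2 lower in serum. The shares over all genes were 23.0% and 22.9% in 2i, and 21.5% and 17.2% in serum. In 2i, Axin2 (-1.30 ± 0.04, adjusted p = 1.08e-11), T (-0.72 ± 0.13, adjusted p = 0.000407) and Sp5 (-0.56 ± 0.07, adjusted p = 1.69e-05) were lower in 3B3L, as was Eomes. Mesp2 (1.17 ± 0.19, adjusted p = 0.000142), Wnt3a (0.98 ± 0.17, adjusted p = 0.000236) and Snai1, a factor of the epithelial to mesenchymal transition (0.82 ± 0.16, adjusted p = 0.000505), were higher. In serum, Hand1 (-1.22 ± 0.30, adjusted p = 0.00473) and Axin2 (-0.80 ± 0.06, adjusted p = 4.58e-08) were lower, and Pdgfra (0.95 ± 0.19, adjusted p = 0.000832), Fgf8 (0.77 ± 0.23, adjusted p = 0.0137), T (0.76 ± 0.24, adjusted p = 0.0214) and Fgf4 (0.39 ± 0.04, adjusted p = 5.05e-06) were higher. The difference of the 2i effects was called for 10 genes, 3 higher and 7 lower in 3B3L, beside 34.7%, 16.3% and 18.3% of all genes. T (-1.48 ± 0.28, adjusted p = 0.00073), Sp5 (-0.86 ± 0.15, adjusted p = 0.000382) and Axin2 (-0.50 ± 0.07, adjusted p = 6.83e-05) had smaller rises in 3B3L, as did Eomes at -0.91. Wnt3a (1.59 ± 0.33, adjusted p = 0.00147), Mesp2 (1.27 ± 0.26, adjusted p = 0.00146) and the receptor Kdr (0.70 ± 0.24, adjusted p = 0.0323) were at the high end.

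**Figure D4:**
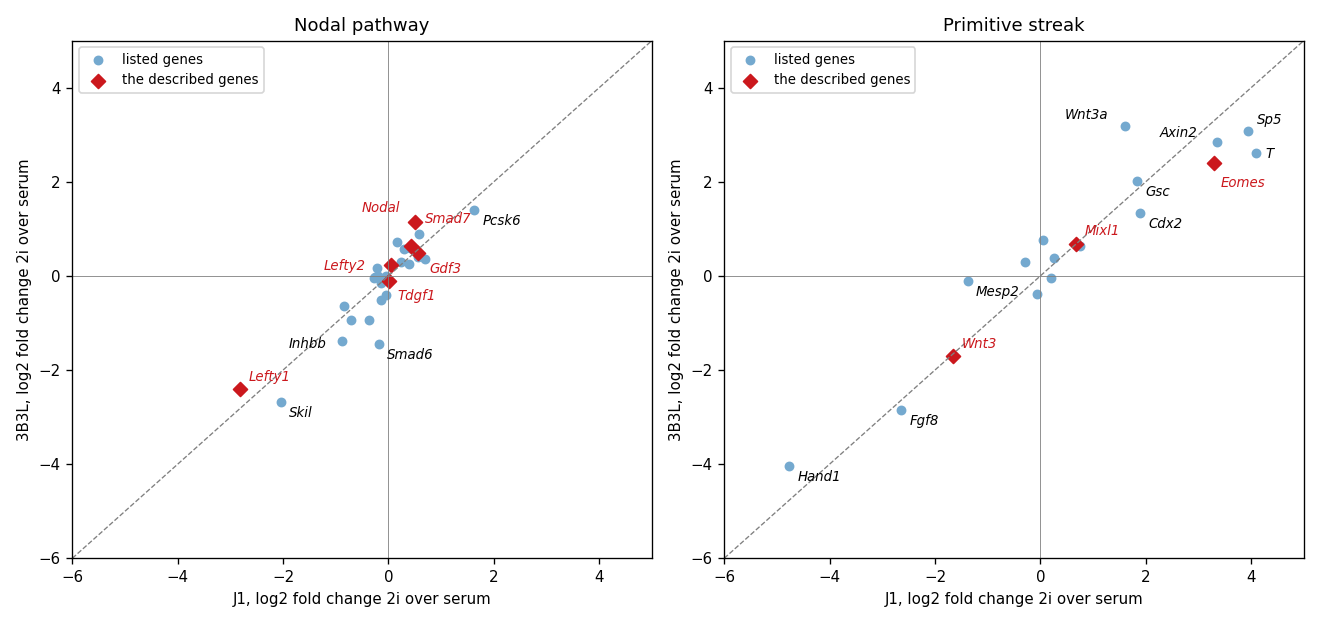
Log2 fold change of 2i over serum in J1 (horizontal) against 3B3L (vertical), for 24 of the tested pathway genes (left) and 15 of the tested streak genes (right) averaging 1 CPM or more in their highest group, Gdf1 left out. Red diamonds are the 9 genes described here and the dashed line marks equal changes. The sign was the same in both lines for 23 of the 24 and for 13 of the 15 listed genes. The share of all genes with the same sign was not computed. Eomes lies near T, Sp5 and Axin2, and Lefty1 near Skil.

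Among 10135 tested genes with at least 10 CPM in their highest group, the pattern over the 12 libraries (Pearson r of log2 CPM) most like that of Nodal was that of Anxa7 (r = 0.995), Ripk3 (r = 0.995) and Sod2 (r = 0.994). As many as 1009 genes had r above 0.9. The 12 libraries fall into only 4 groups that share line and medium, and the part of this grouping in that number was not tested.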

How the data were processed

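Groups and replicate numbers are those of the sample labels. The authors quantified stranded poly(A) libraries with Sailfish (version 0.9.2) against mm10 transcript models and deposited 1 table of estimated counts per gene, summed with tximport and not scaled, and 1 transcript table per library, which gives TPM and estimated counts. The labels do not say which of the sequencing pools held which library. Estimated counts were rounded. Genes were filtered with filterByExpr (17885 kept) and fitted with edgeR (version 4.0.16 in R 4.3.3; TMM factors 0.97 to 1.038, 1 coefficient per group, all 12 libraries). Quasi-likelihood tests were adjusted by Benjamini-Hochberg over all genes tested. SEs were derived from the test, as the absolute log2 fold change divided by the square root of the quasi-likelihood F statistic. CPM errors are SDs of 3 libraries. The fit was tested on simulated data. RPKM used effective lengths weighted by TPM. Genes above 1 CPM were named from the lists if among the 3 highest or lowest called in a contrast, and the 3 genes most like Nodal were named; 1 gene picked by this rule is not reported here. The genes and lists were chosen with earlier results of these data known. Reads carried no molecular identifiers, so floors cover counting error only. Alternatives were DESeq2 (version 1.42.0) size factors and Wald test, other filters, the 6 libraries compared, a replicate block, length offsets, Lefty genes added up and each library left out.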

Additional observations from a re-analysis of the deposited data

Results flagged for a closer look

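In 3 of the 9 genes the 2i effect differed between the lines by the interaction test of edgeR, beside 34.7% of all genes. For Nodal the rise in 2i was larger in 3B3L by 0.65 on the log2 scale, with 0.60 to 0.68 over the alternatives, and all 3 libraries of 3B3L 2i exceeded all 3 of J1 2i. For Lefty1 the fall in 2i was smaller in 3B3L by 0.40 (0.33 to 0.48 over the alternatives that counted it apart from Lefty2), but with the reads of both genes added up the difference was -0.024 (adjusted p = 0.905). For Eomes the rise was smaller in 3B3L, by -0.91 (-0.97 to -0.84). In serum, Eomes was slightly higher in 3B3L, so that the lines changed places between media, as they did for Nodal in the opposite direction. In serum the line cannot be told apart from the culture surface, and these differences of the 2i effects share that limit.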

How the results depend on the processing

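Of 851 values of single genes under the alternatives, 752 kept their direction and their side of the threshold, 58 lost the call, 9 gained it and 32 turned. Of the latter, 5 came from adding up Lefty1 and Lefty2, which by construction mixes both genes: against Lefty2 alone, the sum was at -0.71 in J1 and -0.73 in 3B3L for 2i against serum, and against Lefty1 alone it was at -0.55 for 3B3L against J1 in 2i and -0.024 for the difference of the 2i effects (adjusted p = 0.905), where it turned against Lefty2 alone too. The other 27 passed the test neither before nor after. For 2i against serum in J1, Tdgf1 was at -0.0083 with DESeq2 size factors and with the DESeq2 Wald test, -0.017 with no filter, -0.020 with at least 10 reads in every library, -0.0094 in the 6 libraries compared and -0.082 to 0.058 with 1 library left out, and Lefty2 was at -0.043 with length offsets and -0.081 to 0.18 with 1 library left out. Between lines in serum, Wnt3 was at -0.0087 with no filter, -0.0084 in the 6 libraries compared and -0.11 to 0.13 with 1 library left out, Mixl1 ran from -0.39 to 0.10 and Smad7 from -0.098 to 0.0052. In 2i, Wnt3 ran from -0.33 to 0.33 and Mixl1 from -0.29 to 0.0093. For the difference of the 2i effects, Wnt3 ran from -0.34 to 0.31 and Mixl1 from -0.24 to 0.25, with -0.030 for Mixl1 at 10 reads or more in every library. The counts of genes called stayed within 1.5 times in each comparison. Replicate numbers did not pair the samples (correlations of -0.22 to 0.054), and with a replicate block 6 and 7 genes were called for 2i against serum in J1 and 3B3L, 6 and 5 between lines in 2i and serum, and 3 for the difference, with Mixl1 lost in both lines. The filter of at least 10 reads in every library removed Wnt3. Annotated in place of effective length moved 25 of 36 levels per length by over 1 SD, and estimated reads in place of TPM moved 35 of 48 transcript shares. Depth limits Wnt3 and Mixl1, with at most 55 and 30 reads a library.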

Other observations

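Gdf1 and Cers1 (listed as Lass1) are read from the same locus, and the division of reads between them varied within groups. Gdf1 had 657, 278 and 342 reads in J1 serum, 167, 150 and 161 in J1 2i, 189, 614 and 120 in 3B3L serum and 0 in all 3 libraries of 3B3L 2i. Cers1 had 1, 283 and 271 reads in J1 serum, 386, 4 and 467 in 3B3L serum, at most 3 in J1 2i and 114 to 140 in 3B3L 2i. Their sum was even within groups, at 561 to 658 reads in J1 serum, 575 to 618 in 3B3L serum, 152 to 170 in J1 2i and 114 to 140 in 3B3L 2i. The sum was lower in all 6 libraries in 2i than in any in serum. This pair was looked at after its values were seen.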
